A study of Mus musculus with 12 samples.

Results

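The SLC25 genes are the largest family of solute carriers in mammals, and most of the proteins they encode sit in the inner mitochondrial membrane. Members were chosen by name alone: every row of the count table whose gene symbol was Slc25a followed by a number was taken, whatever its level. This gave 47 of the 56691 genes measured. The libraries came from mouse oocytes of C57BL/6 background, taken from 3-week-old females primed with PMSG, a hormone that stimulates follicle growth. WT animals carried intact Alkbh5, and KO animals were Alkbh5-/- in every tissue, through a CRISPR-Cas9 deletion of exon 1, so that the oocytes also grew without ALKBH5, an RNA demethylase. Oocytes were labelled as germinal vesicle (GV, arrested before meiosis resumes), germinal vesicle breakdown (GVBD) or metaphase II (MII). Each of the 6 groups had 2 libraries made from pools of oocytes, which the study describes as biological replicates. The labels do not tie pools to animals, so that p-values measure the spread between these libraries. KO oocytes mostly failed to mature in culture according to the study, and the KO libraries labelled GVBD and MII may therefore hold oocytes at earlier stages.

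A carrier of this family moves 1 substrate, or exchanges a pair of substrates, between the cytosol and the mitochondrial matrix. Through them ADP enters and ATP leaves, phosphate, dicarboxylates and amino acids cross, and cofactors, iron and glutathione reach the matrix. The carriers are encoded in the nucleus, made in the cytosol, and inserted by the TOM complex, the small TIM chaperones and the TIM22 complex. The oocyte supplies the mitochondria of the early embryo. After growth it stops transcription, so that RNA lost in the maturing oocyte is not renewed. The methods reverse-transcribed polyadenylated mRNA, and the study reports that poly(A) tails of maternal transcripts shorten in maturation. A change in tail length and a change in RNA amount therefore cannot be told apart in these counts.

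The libraries held 28557742 to 40247810 counts each, and most comparisons share libraries with another, so that they are not independent. Between 221927 and 838409 counts per library fell on ERCC spike-in RNAs. All levels below are counts scaled to the summed ERCC counts of the library (spike-in-scaled counts) unless another scale is named, and in pools of oocytes fewer cells and less RNA per cell cannot be told apart. Alkbh5 had 5355 to 10181 counts in the 6 WT libraries and 54 to 143 in the 6 KO libraries, so that the genotype labels held, and the stage labels were not checked. All 8 oocyte markers were detected, with sums of 586776 to 997442 counts. The 8 cumulus and granulosa markers summed to 979 to 2357 counts. Of them Foxl2 stood at 0 to 5 counts and Amh at 0 to 4. Others were detected in every library, Cyp19a1 at 577 to 2225 counts, Kitl at 73 to 263 and Fshr at 17 to 221. A contribution of these cells was not tested. Blood and heart markers were uneven. The 6 erythroid markers summed to 32481 counts or more in 6 libraries (WT GV 2, both WT GVBD, both KO GV and KO MII 1) and to 1435 or fewer in the other 6. KO MII 2 stood apart by the number of genes with a count, 19837 against 21938 to 24436 in the other 11 libraries.

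Of the 47 members, 3 (Slc25a2, Slc25a18 and Slc25a41) had 0 counts in every library, 8 had a mean under 10 counts (these 3 included), and 24 had a mean of at least 100 counts. Between 37 and 42 members had a count in a given library. The family took a small and steady part of the transcriptome, 0.0811% to 0.1135% of endogenous counts per library.

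Levels of different genes were compared per kilobase of exon, and 2 carriers stood far above the rest in WT GV oocytes. The length used is the union of all annotated exons of a gene, which can exceed that of the transcript present. Slc25a5, the ADP/ATP carrier (ANT2) of proliferating and many other somatic cells, had a mean of 3856 spike-in-scaled counts per kilobase. Slc25a17, the carrier of coenzyme A, FAD and NAD in the membrane of peroxisomes rather than mitochondria, had 3652. Slc25a31, the ADP/ATP carrier known from germ cells (ANT4), followed with 737. Slc25a48, recently tied to choline import, had 591, and Slc25a13, the aspartate/glutamate carrier citrin of the malate-aspartate shuttle, had 532. The phosphate carrier Slc25a3, which feeds ATP synthase, ranked as number 11 with 243. Its rank depends on the length used, 5550 bases against 2128 for Slc25a31. Before division by length their mean WT GV levels were 1351 and 1569.

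Across maturation in WT oocytes, the question was which carrier transcripts fell in level with the bulk of maternal RNA between GV and MII. Of 38 members tested, 4 fell and none rose (edgeR quasi-likelihood test, Benjamini-Hochberg adjusted over all tested genes, with at least a 2-fold change), against 30.5% of all 18816 tested genes called lower and 0.393% called higher. The members that fell were Slc25a37, Slc25a35, Slc25a30 and Slc25a1. The median log2 fold change was -0.99 over the members and -1.06 over all genes, and 19 of the 38 members were at or below -1, against 51.7% of all genes. The median of the family lay close to that of all transcripts. Without WT GV 2 no member was called, against 14.3% of all genes. Without WT GV 1 there was 1, against 14.4%, without WT MII 2 there was 1, against 14.3%, and without WT MII 1 there were 9, against 26.1%.

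Slc25a35, a carrier whose substrate is not settled (chr11:68968131-68974365, plus strand), had 1133 and 1231 spike-in-scaled counts in the WT GV pair, 1179 and 1065 in the GVBD pair, and 290 and 136 in the MII pair. Both MII libraries lay far below all 4 earlier ones. The change from GV to MII was -2.47 ± 0.54 (log2, SE; adjusted p = 4.21e-05), and it was no longer called without WT GV 1 (-2.53) or WT GV 2 (-2.41). It shares 1151 exon bases with Rangrf on the opposite strand, a gene with a mean of 197.5 counts, and without strand information reads in that stretch cannot be assigned to one of them.

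Slc25a30, an uncoupling-protein relative (chr14:75760117-75787037, minus strand), had 616 and 582 in the WT GV pair, 755 and 399 in the GVBD pair, and 234 and 97.3 in the MII pair. All 4 earlier libraries lay above both MII libraries. The change was -1.86 ± 0.56 (adjusted p = 0.00430), and the call was lost without WT GV 1, WT GV 2 or WT MII 2, where the estimates ran from -1.36 to -1.90. Slc25a1, which exports citrate for cytosolic acetyl-CoA (chr16:17925223-17928219, minus strand), had 185 and 265 in the WT GV pair, 219 and 211 in the GVBD pair, and 76.6 and 57.8 in the MII pair, a change of -1.74 ± 0.65 (adjusted p = 0.0273) that was no longer called on leaving out any one of the 4 libraries (-1.46 to -1.98). For these 3 genes the WT GVBD levels overlapped those of WT GV and lay above those of WT MII. The share of all genes lying lower at MII in this way was not counted, and 51.7% of all genes were at or below -1 from GV to MII.

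In KO the same 3 genes also had their lowest levels at MII. Slc25a35 had 1351 and 1313 spike-in-scaled counts in the KO GV pair, 1394 and 898 in the GVBD pair, and 696 and 288 in the MII pair. Slc25a1 had 428 and 237 in the KO GV pair, 452 and 294 in the GVBD pair, and 155 and 73.1 in the MII pair. Both lay below all earlier KO libraries at MII, without a call. How many of all genes did so was not counted, and 54.9% of all genes were at or below -1 from GV to MII in KO.

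At the other end, the 3 highest members with at least 100 counts were Slc25a16 at 0.53 ± 0.52, Slc25a3 at 0.43 ± 0.49 and Slc25a13 at 0.30 ± 0.48, none of which passed the test on the spike-in scale. Slc25a3 had 1233 and 1469 spike-in-scaled counts in the WT GV pair, 2202 and 1583 in the GVBD pair, and 2368 and 1269 in the MII pair, with overlap between all stages. Slc25a13 had 2272 and 1770 in the WT GV pair, 2433 and 1581 in the GVBD pair, and 3365 and 1627 in the MII pair, again overlapping.

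Which members were called depended on the scale. TMM factors set the typical gene near 0 and moved the median of all genes from -1.06 to -0.14, so that they show a change relative to other transcripts rather than per spike-in. With TMM, 3 members were called higher (Slc25a16 at 1.43 ± 0.21, adjusted p = 0.00725; Slc25a3 at 1.32 ± 0.19, adjusted p = 0.00644; Slc25a13 at 1.16 ± 0.25, adjusted p = 0.0212) and 1 lower (Slc25a35 at -1.60 ± 0.24, adjusted p = 0.00766), against 8.47% of all genes called higher and 16.2% called lower. Slc25a35 was thus called lower on both scales. Slc25a16, Slc25a3 and Slc25a13 made up a larger part of the remaining RNA at MII, without a change per spike-in beyond the replicate spread.

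In KO oocytes, 0 of 37 members passed the test from GV to MII (edgeR quasi-likelihood test), against 3.28% of all genes called lower. At an unadjusted p under 0.05 there were 7 members, against 24.6% of all genes, and the DESeq2 Wald test called 6, all lower, against 16.3%. The median was -1.24 over the members and -1.17 over all genes, and 21 of 37 members were at or below -1, against 54.9% of all genes. The lowest estimates were Slc25a20 at -3.22 ± 1.06 (adjusted p = 0.103), Slc25a37 at -3.04 ± 1.11 (adjusted p = 0.129) and Slc25a4 at -2.11 ± 0.81 (adjusted p = 0.147). The highest were Slc25a16 at 0.18 ± 0.68, Slc25a38, the glycine carrier needed for haem synthesis, at 0.10 ± 0.75, and Slc25a26, which brings S-adenosylmethionine into the matrix, at -0.10 ± 0.65.

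The 2 KO MII libraries differed widely. Slc25a20, the carnitine/acylcarnitine carrier of fatty acid oxidation, had 335 and 241 in KO GV, 265 and 291 in KO GVBD, but 55.0 and 7.2 in KO MII, where KO MII 2 held only 10 counts. Its estimate was -2.38 ± 0.62 without KO MII 2 (adjusted p = 0.0178) and -5.30 ± 0.77 without KO MII 1 (adjusted p = 5.24e-06). Without KO MII 2, 6 members were called, against 16.9% of all genes, and without KO MII 1, 24 were, against 54.2%. The count of calls thus turned on which of these libraries was kept.

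The difference between the genotypes in the GV to MII change was itself tested as an interaction. No gene passed (0% of 20807), and 0 of 40 members did. At an unadjusted p under 0.05 there were 2 members, against 5.75% of all genes, and DESeq2 called 0, against 0.731% of all genes. Among members with at least 100 counts the estimates ran from -1.74 ± 1.16 for Slc25a20, -1.35 ± 0.94 for Slc25a4 and -0.70 ± 0.998 for Slc25a39 to 1.18 ± 1.86 for Slc25a37, 1.03 ± 0.82 for Slc25a35 and 0.64 ± 0.69 for Slc25a31. The difference for Slc25a35, which was called in WT and not in KO, was thus tested and did not pass (adjusted p = 1).

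**Figure D1:**
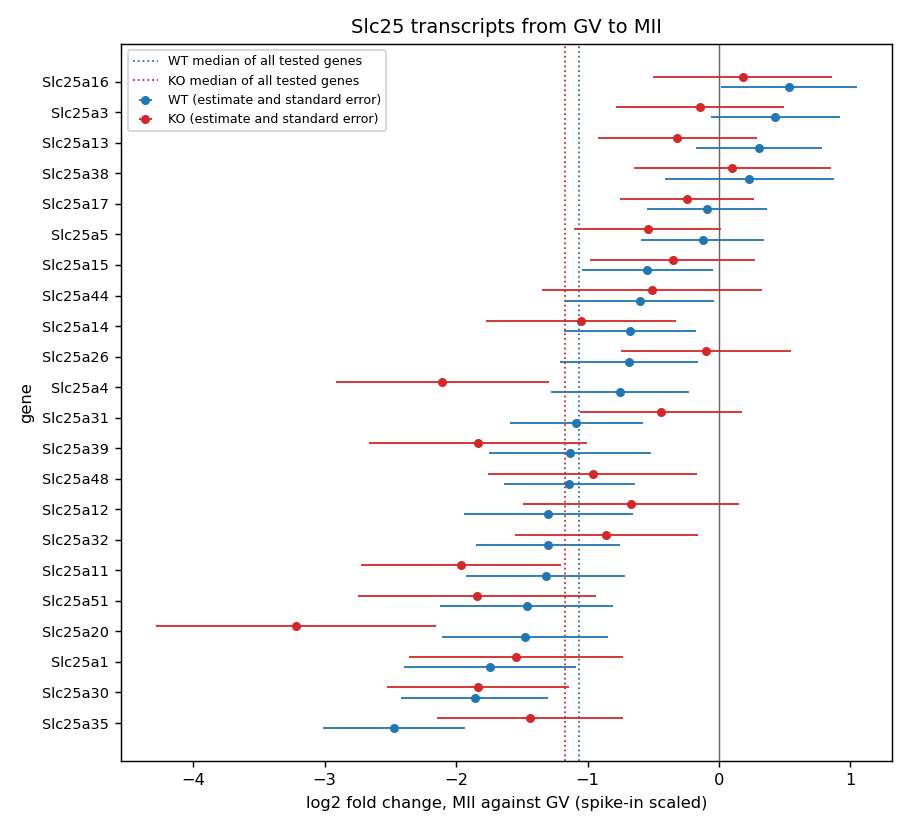
Log2 fold change of MII against GV (spike-in scaled, horizontal axis) for 22 SLC25 genes averaging 100 counts or more in both genotypes, with points for the estimates in WT (blue) and KO (red) and bars for the standard error of each; dotted lines mark the median of all tested genes. Slc25a35, Slc25a30 and Slc25a1 lie lowest in WT, Slc25a20 and Slc25a4 lowest in KO, and Slc25a16, Slc25a3, Slc25a13 and Slc25a38 lie near or above 0 in WT.

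Between GV and GVBD there were few calls. Of 40 members 0 were called (edgeR), against 0.0511% of all genes. At an unadjusted p under 0.05 there was 1 member, against 6.25% of all genes, and DESeq2 called 0, against 1.96%. Among the lowest estimates were Slc25a20 at -0.70 ± 0.53 and Slc25a26 at -0.68 ± 0.50. The highest were Slc25a4 at 0.63 ± 0.46, Slc25a3 at 0.49 ± 0.38 and Slc25a36, a pyrimidine nucleotide carrier, at 0.40 ± 0.66. In KO, 1 of 37 members was called lower, Slc25a37, against 0.184% of all genes. Next to it were Slc25a39 at -1.87 ± 0.52 (adjusted p = 0.442) and Slc25a30 at -0.60 ± 0.31. The highest were Slc25a44, a carrier of branched-chain amino acids, at 0.57 ± 0.48, Slc25a32, which takes up folate and FAD, at 0.55 ± 0.30, and Slc25a31 at 0.40 ± 0.27.

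The ends of some of these transcripts are shown because maternal RNAs are known to be held or mobilised in maturation through the cytoplasmic polyadenylation element, TTTTAT or TTTTAAT, upstream of the poly(A) signal, AATAAA or ATTAAA. The last 100 bases of the principal annotated transcript (GENCODE M21, GRCm38) were searched on the sense strand for the element, in 41 members tested over the 12 libraries. Its letters were present on either side of the signal in 9 (22.0%), against 18.1% of 15682 tested protein-coding genes. They lay upstream of the last signal in 5 (12.2%), against 12.6% of all, and only downstream of it in the other 4 (Slc25a11, Slc25a16, Slc25a34 and Slc25a44). A poly(A) signal stood in the last 40 bases of 34 members (82.9%), against 75.4% of all. In Slc25a48 and Slc25a32 an upstream element and the signal fit in 1 window of 30 bases. Capitals mark the element and the signal nearest to the end. The windows of Slc25a5, Slc25a17 and Slc25a30 hold no element, and that of Slc25a5 holds another AATAAA, left in lower case. Slc25a5 and Slc25a17 do have an element upstream of the window shown, starting 58 and 100 bases from the end. Slc25a30 has none in its last 100 bases.
Slc25a48 (chr13:56474189-56474218, plus strand): gacTTTTATgtggaaatcatAATAAAaggc
Slc25a32 (chr15:39091242-39091271, minus strand): gagtTTTTATttaagtgaaaAATAAAttta
Slc25a5 (chrX:36798770-36798799, plus strand): ataataaaaaattgaagaAATAAAaatacc
Slc25a17 (chr15:81318931-81318960, minus strand): tccaatcacataagcctcAATAAAttgtca
Slc25a30 (chr14:75760127-75760156, minus strand): agccttgtttcattatttAATAAActgaaa
In WT the log2 change from GV to MII of the 9 members with these letters on either side had a median of -0.61 and ran from -1.32 to 0.53. The 29 tested members without it had a median of -1.08 and ran from -4.23 to 0.43. The ranges overlapped from -1.32 to 0.43, and a match of letters at an annotated end does not show which end the oocyte uses.

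The ADP/ATP carriers exchange the cytosol's ADP for the matrix's ATP, and Slc25a5 had the lowest all-stage estimate of KO against WT among members with at least 100 counts. Slc25a5 (chrX:36795651-36798807, plus strand) had 6704 and 5992 spike-in-scaled counts in the WT GV pair, 6495 and 4407 in the GVBD pair, and 6754 and 4884 in the MII pair. In KO it had 4468 and 4127 in the GV pair, 3177 and 3085 in the GVBD pair, and 3332 and 2567 in the MII pair. KO lay below WT at each stage without overlap, and over all stages the highest KO library lay just above the lowest WT library. The share of all genes lying lower at each stage in this way was not counted. The estimate for KO over WT was -0.56 ± 0.17 (adjusted p = 0.193) in GV oocytes. It was -0.80 ± 0.51 (adjusted p = 0.499) in GVBD oocytes and -0.98 ± 0.77 (adjusted p = 0.9999) in MII oocytes. Fitted over the 3 stages together with a stage term, it was -0.78 ± 0.21 (adjusted p = 0.0750), which missed the threshold.

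Relative to the other transcripts the difference was larger. With TMM scaling, which moved the median of all genes from 0.29 to 0.02, Slc25a5 was -1.01 ± 0.14 in KO over all stages and passed (adjusted p = 0.00322), the only one of 41 members to be called, against 1.58% of all genes called lower. Slc25a13, at -0.69 ± 0.16 (adjusted p = 0.0303), stayed under the 2-fold minimum. In CPM (counts scaled to the endogenous total of the library), Slc25a5 lay between 65.0 and 116 in the 6 KO libraries, with a median of 89.2, and between 143 and 257 in the 6 WT libraries, with a median of 154, with no overlap. It was the only member without overlap on that scale (1 of 41 lower, 0 higher), where 1.25% of all 22004 genes lay lower and 0.941% higher in all KO libraries. As Slc25a5 is known to have processed pseudogenes, reads that match several copies would have been lost by unique mapping in both genotypes.

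Slc25a31 went the other way. It had 1630 and 1508 in the WT GV pair, 2530 and 1313 in the GVBD pair, and 888 and 591 in the MII pair, against 2289 and 2190 in the KO GV pair, 3343 and 2556 in the GVBD pair, and 2169 and 1133 in the MII pair. KO lay above WT at each stage without overlap, as it also did for Slc25a21, Slc25a26, Slc25a30, Slc25a32 and Slc25a38. The share of all genes lying higher at each stage in this way was not counted. Over all stages 66% of all genes had an estimate above 0. The difference over all stages for Slc25a31 was 0.76 ± 0.26 (adjusted p = 0.142) and did not pass. On the TMM scale it was 0.51 ± 0.16 (adjusted p = 0.0861).

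Slc25a4, the ADP/ATP carrier of heart and skeletal muscle (ANT1), had 459 and 924 in the WT GV pair, 1149 and 995 in the GVBD pair, and 512 and 308 in the MII pair. In KO it had 1102 and 726 in the GV pair, 901 and 1129 in the GVBD pair, and 327 and 97.4 in the MII pair. WT and KO overlapped at every stage, and the difference over all stages was -0.21 ± 0.35 (adjusted p = 0.796). Its unscaled counts, but not its spike-in-scaled counts or CPM, split with 5 of 6 heart muscle markers. All 6 cardiac markers were detected, with sums of 2440 to 34608, of which Tnni3 made up the larger part in most libraries. Without Tnni3, a choice made after the values were seen, the other 5 summed to 16 to 138 in WT GV 1, KO GVBD 1, KO MII 1 and KO MII 2, where Actc1 stood at 0, and to 2098 to 5982 in the other 8 libraries. Tnni3 itself was highest in WT GV 1 (34485 counts), one of those 4 libraries. Slc25a4 had 136 to 548 unscaled counts in those 4 libraries and 569 to 1124 in the other 8. Its spike-in-scaled counts overlapped (97.4 to 901 against 308 to 1149), and so did its CPM (4.41 to 18.4 against 16.1 to 32.7). How many of all genes split in this way was not counted, and the part of these markers in its level was not tested.

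As a share of the summed per-kilobase counts of the 3 carriers, which needs no scaling between libraries, Slc25a5 made up 70.2% to 87.9% in the WT libraries and 49.7% to 73.1% in the KO libraries. Within each stage the shares did not overlap. They were 80.9% and 76.8% in WT GV against 63.8% and 65.2% in KO GV, 70.2% and 72.0% against 49.7% and 52.7% at GVBD, and 86.6% and 87.9% against 63.6% and 73.1% at MII. Slc25a31 took 8.23% to 21.1% in WT and 25.0% to 40.5% in KO, without overlap. Slc25a4 took 3.87% to 11.4% and 1.94% to 13.5%, with overlap. At each stage both KO libraries thus held a smaller share of Slc25a5 and a larger share of Slc25a31 than both WT libraries, which is a description with no test.

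**Figure D2:**
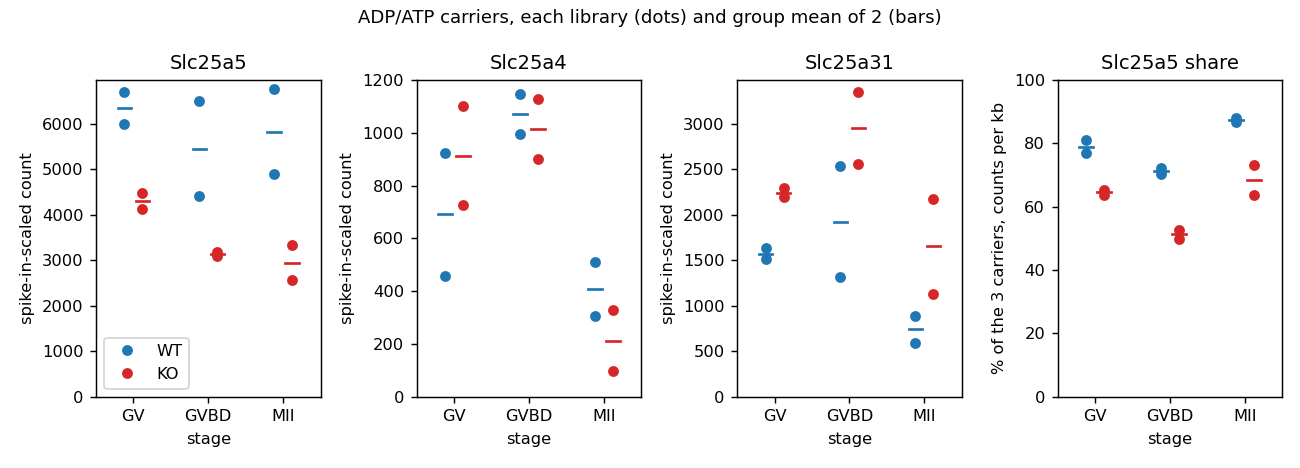
Spike-in-scaled counts of Slc25a5, Slc25a4 and Slc25a31, and the share of Slc25a5 in the summed counts per kilobase of the 3 genes (percent), by stage, in WT (blue) and KO (red). Dots are libraries and bars are means of 2. Slc25a5 lies lower and Slc25a31 higher in KO at each stage, and the share of Slc25a5 is 70.2% to 87.9% in WT and 49.7% to 73.1% in KO.

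For the family as a whole, the comparison of KO with WT gave few calls. At GV 0 of 39 members were called (edgeR), against 0.0977% of all genes. At an unadjusted p under 0.05 there were 10 members, 9 of them higher, against 17.9% of all genes, and DESeq2 called 1, Slc25a30, against 3.42%. The median was 0.51 over the members and 0.36 over all genes, and 34 of 39 members lay above 0, as did 72.7% of all genes. The highest were Slc25a30 at 1.25 ± 0.22 (adjusted p = 0.128), the NAD carrier Slc25a51 at 0.84 ± 0.36 and the oxoglutarate/malate carrier Slc25a11 at 0.82 ± 0.30. The lowest were Slc25a5, Slc25a13 at -0.14 ± 0.22 and Slc25a44 at 0.03 ± 0.46. Slc25a47 had 0 counts in both WT GV libraries and 79 and 22 in KO GV, but it varied from 4 to 67 within WT GVBD as well.

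At GVBD 1 of 40 members was called, Slc25a37, lower in KO, against 1.73% of all genes called lower. The other low estimates were Slc25a39 at -1.52 ± 0.62 (adjusted p = 0.234) and Slc25a5. Among the highest were Slc25a26 at 1.09 ± 0.58 and Slc25a20 at 0.91 ± 0.59.

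At MII 0 of 37 members were called (edgeR), against 0.803% of all genes. At an unadjusted p under 0.05 there was 1 member, against 7.32% of all genes, and DESeq2 called 0, against 1.97%. The highest were Slc25a30 at 1.27 ± 0.93, Slc25a35 at 1.21 ± 0.91 and Slc25a31 at 1.16 ± 0.84, and the lowest Slc25a5, Slc25a4 at -0.95 ± 0.91 and Slc25a13 at -0.76 ± 0.81. Standard errors near 1 on the log2 scale leave differences of this size within the replicate spread.

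Over all stages 0 of 41 members were called (edgeR), against 1.26% of all genes. At an unadjusted p under 0.05 there were 13 members, 12 of them higher in KO, against 18.8% of all genes, and DESeq2 called 4 higher, among them Slc25a30, Slc25a25 and Slc25a38, against 6.16% of all genes. The median was 0.21 over the members and 0.29 over all genes. Among the highest with at least 100 counts were Slc25a38 at 1.08 ± 0.35 (adjusted p = 0.132) and Slc25a30 at 1.08 ± 0.30 (adjusted p = 0.0912). The lowest were Slc25a5, Slc25a13 at -0.48 ± 0.25 (adjusted p = 0.304) and Slc25a39 at -0.29 ± 0.45 (adjusted p = 0.779).

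Slc25a30 had 1322 and 1532 in the KO GV pair, 1074 and 814 in the GVBD pair, and 534 and 266 in the MII pair. At each stage both KO libraries lay above both WT libraries, as for Slc25a31 and the members named with it above. The share of all genes lying higher at each stage in this way was not counted. Without KO MII 2, 3 members were called higher over all stages, among them Slc25a30 and Slc25a25, against 3.84% of all genes called. Slc25a25, a calcium-sensitive ATP-Mg/phosphate carrier of low level, had 18.8 to 73.3 in the 6 WT libraries with a median of 42.0 and 22.2 to 191 in the 6 KO libraries with a median of 114, with overlap through KO MII 2 alone, and an estimate of 1.47 ± 0.41 (adjusted p = 0.0895). Slc25a21, the oxoadipate carrier, was the only member whose spike-in-scaled counts did not overlap between genotypes over all stages. It had 14.2 to 56.4 in WT and 56.4 to 133 in KO. The gap between the groups was narrow, its estimate was 1.31 ± 0.47 (adjusted p = 0.157), and 1.09% of all genes lay higher in this way and 0.432% lower.

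**Figure D3:**
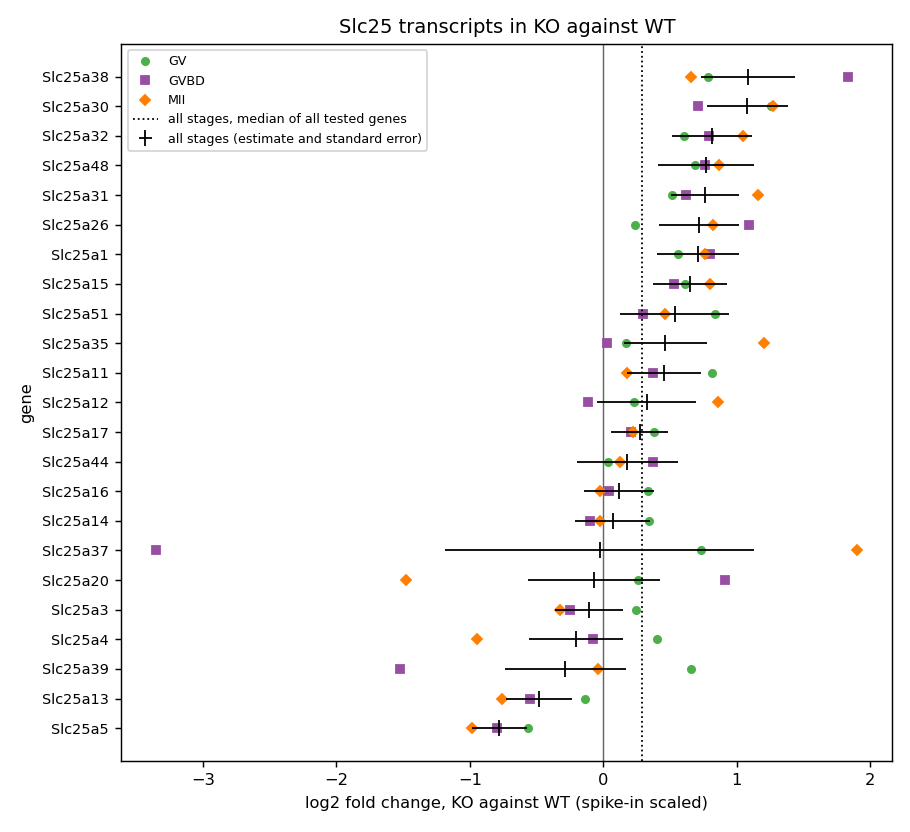
Log2 fold change between KO and WT, positive where KO is higher (spike-in scaled, horizontal axis) for 23 SLC25 genes averaging 100 counts or more, at GV, GVBD and MII (coloured symbols) and over all stages (black mark with its standard error); the dotted line is the all-stage median of all tested genes, 0.29. Slc25a5 lies lowest over all stages with its 3 stages on the same side, whereas the stages of Slc25a37 are spread from -3.35 to 1.90.

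Slc25a37, the mitochondrial iron importer mitoferrin-1 of developing red cells (chr14:69241848-69285112, minus strand), gave the largest calls, and these moved with blood markers. In spike-in-scaled counts it had 10.7 and 420 in the WT GV pair, 241 and 220 in the GVBD pair, and 17.5 and 5.8 in the MII pair. In KO it had 262 and 452 in the GV pair, 23.0 and 22.0 in the GVBD pair, and 80.1 and 7.2 in the MII pair. The WT GV libraries lay at opposite ends of the range. The estimate was -3.35 ± 0.68 for KO against WT at GVBD (adjusted p = 0.00870), -4.23 ± 0.79 for MII against GV in WT (adjusted p = 1.15e-06) and -3.98 ± 0.54 for GVBD against GV in KO (adjusted p = 0.0403). Without WT GV 2, the change in WT was 0.12 (adjusted p = 0.998), so that this call rests on 1 library. The change in KO was -4.32 without KO GV 1 and -3.53 without KO GV 2, and was called in neither fit. With TMM scaling the 3 estimates in turn were -3.65 ± 0.47 (adjusted p = 0.0743), -3.30 ± 1.47 (adjusted p = 0.148) and -3.89 ± 0.52 (adjusted p = 0.189), so that the sizes stayed large while the calls were lost.

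The summed counts of the erythroid markers, which include the globin genes and Alas2, were 445 and 156462 in the WT GV pair, 108005 and 100021 in the GVBD pair, and 267 and 1435 in the MII pair. In KO they were 86666 and 187264 in the GV pair, 128 and 269 in the GVBD pair, and 32481 and 38 in the MII pair. All 6 markers were detected. Alas2, which starts haem synthesis in red cells, had 609 to 4259 counts in the 6 libraries with many erythroid counts and 4 to 28 in the other 6. The unscaled counts of Slc25a37 were 80 to 354 in the 6 libraries with at least 32481 erythroid counts and 9 to 22 in the other 6. In spike-in-scaled counts, 2 of 41 members (Slc25a37 and Slc25a39) lay higher in those 6 without overlap, against 1.1% of all 22004 genes. In CPM 1 of 41 did (Slc25a37), against 0.959% of all genes. As both WT GVBD libraries were on one side and both KO GVBD libraries on the other, genotype and erythroid content cannot be told apart for Slc25a37 at GVBD.

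The other iron importer, Slc25a28 (mitoferrin-2, found in most tissues), was low throughout. It had 39.2 and 52.2 in the WT GV pair, 51.0 and 29.2 in the GVBD pair, and 8.0 and 13.0 in the MII pair, against 18.2 and 48.5 in the KO GV pair, 0 and 13.2 in the GVBD pair, and 5.0 and 0 in the MII pair. WT MII lay below WT GV and WT GVBD without overlap, and the change of -2.10 ± 1.09 did not pass (adjusted p = 0.137). The share of all genes lying lower at MII in this way was not counted.

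The glutathione carriers are Slc25a39 and Slc25a40, both of which bring glutathione into the matrix. Slc25a39 had 134 and 357 in the WT GV pair, 404 and 207 in the GVBD pair, and 110 and 113 in the MII pair, 277 and 496 in the KO GV pair, 138 and 74.9 in the GVBD pair, and 155 and 62.3 in the MII pair. Its 6 highest scaled levels, 155 to 496, were in the same 6 libraries with many erythroid counts, as for 1.1% of all genes. Its unscaled counts overlapped (152 to 389 against 68 to 235), and the part of those cells was not tested. Slc25a40 had 73.6 and 71.9 in the WT GV pair, 139 and 57.6 in the GVBD pair, and 88.5 and 89.2 in the MII pair, 195 and 117 in the KO GV pair, 92.1 and 102 in the GVBD pair, and 86.1 and 55.2 in the MII pair. Neither was called by edgeR in any comparison, and the genotypes of Slc25a40 overlapped at GVBD.

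**Figure D4:**
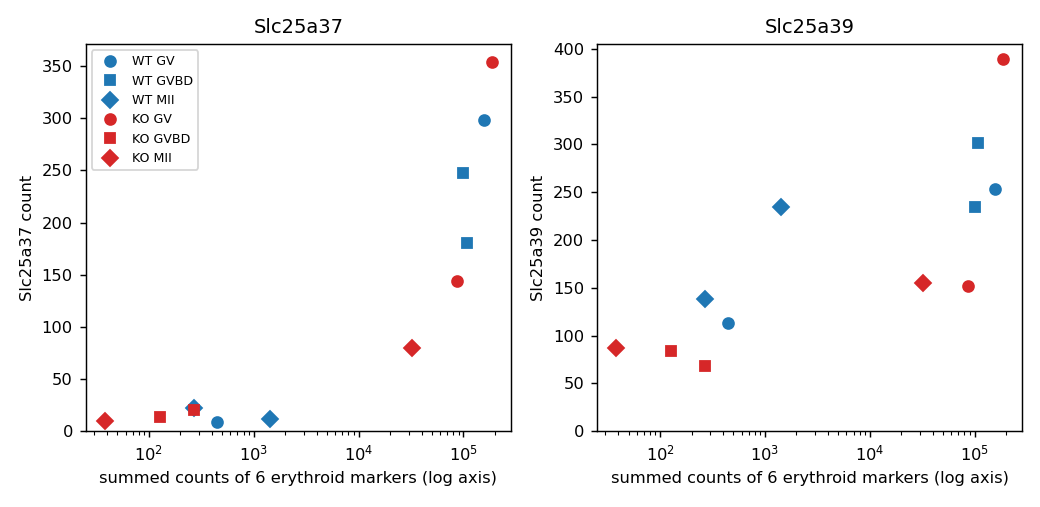
Counts of Slc25a37 (left) and Slc25a39 (right) in each library against the summed counts of 6 erythroid markers (log axis), with colour for genotype (WT blue, KO red) and shape for stage. Slc25a37 holds 9 to 22 counts in the 6 libraries with 1435 or fewer erythroid counts and 80 to 354 in the 6 with 32481 or more, while Slc25a39 overlaps between them.

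Of the other members with the highest levels per kilobase, none was called by edgeR on the spike-in scale. Slc25a17 had 10766 and 10031 spike-in-scaled counts in the WT GV pair, 12954 and 8446 in the GVBD pair, and 11933 and 7583 in the MII pair, 15357 and 11656 in the KO GV pair, 13882 and 10871 in the GVBD pair, and 11135 and 11681 in the MII pair. Its change from GV to MII was -0.09 ± 0.46 in WT and -0.24 ± 0.51 in KO, and the genotype difference over all stages was 0.27 ± 0.21 (adjusted p = 0.518). Slc25a48 had 1973 and 2015 in the WT GV pair, 3453 and 1521 in the GVBD pair, and 1148 and 661 in the MII pair, 3312 and 3108 in the KO GV pair, 4918 and 3519 in the GVBD pair, and 2833 and 463 in the MII pair. In WT it was lower at MII by an estimate of -1.14 ± 0.50 (adjusted p = 0.0665), short of the threshold. Slc25a13 had 1673 and 1991 in the KO GV pair, 1371 and 1375 in the GVBD pair, and 1735 and 1208 in the MII pair, overlapping WT at GV and MII but not at GVBD. Slc25a3 had 1917 and 1291, 1717 and 1466, and 1886 and 1013 in the same 3 KO groups, overlapping WT at every stage.

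By role, from GV to MII in WT, all 4 carriers of di- and tricarboxylates lay below 0 (-1.74 to -0.79, 1 called), as did all 8 carriers of cofactors and nucleotides (-1.46 to -0.09, none called), all 3 ADP/ATP carriers (-1.08 to -0.13, none called) and both iron carriers (-4.23 to -2.10, 1 called). Of 3 tested carriers of aspartate and glutamate, 1 lay above 0 (-1.30 to 0.30), and of 3 other amino acid carriers 1 did (-0.60 to 0.23). No role group had more than 1 called member. Over all genes 17.6% lay above 0 and the 30.5% given above were called lower, so that groups lying below 0 are near this background.

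Among other genes of the pathway, 10 of 16 genes of the import machinery of the carriers fell from GV to MII in WT. All 16 genes of the list were tested, 30.5% of all genes were called lower, and the median of the list was -2.16. Tomm22, a receptor of the outer membrane, fell by 3.16 on the log2 scale (SE 0.54, adjusted p = 6.73e-08), Tomm20, another receptor, was at -2.95 ± 0.65 (adjusted p = 4.68e-05), and Timm9, a chaperone of the intermembrane space, at -2.15 ± 0.49 (adjusted p = 9.42e-05). Timm22, the channel that inserts the carriers, was at -1.93 ± 0.98 and did not pass (adjusted p = 0.126). In KO, 2 of the 16 fell (Tomm22 and Timm8a1), against 3.28% of all genes called lower. The median of the list in KO was -2.55, against -1.17 over all genes. The test of the genotype difference in this change called 0 of 16, and 0 of all genes. KO against WT called 0 of 16 at each stage. Of all genes 0.0977% were called at GV, 1.73% were called lower at GVBD and 0.803% were called at MII. Of 23 genes for other mitochondrial solute routes, 6 fell from GV to MII in WT, with a median of -0.94, among them the outer-membrane pore gene Vdac2 (-2.48 ± 0.47, adjusted p = 1.95e-06), its relative Vdac3 and the pyruvate carrier subunit Mpc2. None rose, and in KO 0 of 23 passed, with a median of -1.36, against the same 3.28% of all genes called lower. The genotype difference in this change was called for 0 of 23. Ucp2, the uncoupling protein gene and like Slc25a37 lower in KO at GVBD (-3.94 ± 0.73, adjusted p = 0.00405), was also called lower at GVBD against GV in KO, and its relation to the blood markers was not tested. Ucp1 was called lower at GVBD against GV in WT and in KO against WT at MII. The low-count filter left Ucp1 out of KO against WT at GVBD, so that its calls may rest on levels near the floor.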

How the data were processed

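RNA of WT and Alkbh5-/- mouse oocytes was sequenced at 3 stages, in 2 libraries per group. The authors deposited raw read counts for each gene, not normalized. According to the methods, reads were trimmed with Cutadapt, aligned with Hisat2 to GRCm38 joined to the ERCC sequences and kept when uniquely mapped, before StringTie; the submitters' processing notes name cutadapt 1.9, HISAT2 2.0.4 and StringTie 1.3.4d, and other versions are named in the paper. The annotation release, whether strand was used, and how whole counts were made are not given in the sources used here. The sample descriptions give a bulk extraction, whereas the methods give SMART-seq on small pools with spike-ins, and the sources differ. Unique mapping lowers genes with near-identical copies, and PCR without molecular identifiers makes reads non-independent.

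Symbols were matched to 52073 of 56691 genes (91.9%) and to all 47 members. Positions and union exon lengths are those of GENCODE M21 (GRCm38). Total counts were 28557742 to 40247810 per library. Each comparison was fitted to its own groups with edgeR 4.0.16 (estimateDisp, glmQLFit, glmQLFTest; R 4.3.3), library sizes proportional to summed ERCC counts, and genes kept by filterByExpr. A gene was called at a Benjamini-Hochberg adjusted p under 0.05 over all tested genes and an absolute log2 fold change of at least 1 (two-sided). Standard errors are the log2 fold change over the square root of F. Code was tested on simulated data, with 50 genes set to each log2 change. For KO against WT at MII, 1 of 50 was recovered at -3, 2 at 3, and 0 at -1.5 or 1.5. For MII against GV in WT, 28 of 50 were recovered at -3, 47 at 3, 4 at -1.5 and 5 at 1.5. A missing call in these comparisons therefore does not show that a level stayed the same. Per-library levels are counts divided by the ERCC sum relative to its mean over 12 libraries.

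Alternatives were TMM and median-of-ratios scaling, no low-count filter, the DESeq2 1.42.0 Wald test, one model of all 12 libraries, no fold minimum, a fit with a replicate block, and dropping each library in turn. Crossed replicate numbers were added after seeing the data. Named with values in every library were members called in any comparison, the ADP/ATP, phosphate, iron and glutathione carriers and the 5 highest per kilobase in WT GV; Slc25a20, Slc25a21, Slc25a25 and Slc25a47 were added after their values were seen. In each comparison the 3 highest and 3 lowest members with a mean of at least 100 counts were named, apart from items not reported here. The members and lists were chosen with earlier results of these data known.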

Additional observations from a re-analysis of the deposited data

How the results depend on the processing

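The number of members called was 0 for KO against WT at GV, and became 2 with no low-count filter and 1 with DESeq2, and 0 to 2 on leaving out 1 library. At GVBD it was 1 and became 0 with TMM, median-of-ratios scaling or one model of all libraries, 3 with no filter, 2 with DESeq2, and 0 to 3 on leaving out 1 library (3 without KO GVBD 1, 0 without either WT GVBD library). At MII it was 0 under every alternative. Over all stages it was 0 and became 1 with TMM or median-of-ratios scaling (Slc25a5, lower), 2 with no filter, 4 with DESeq2, and 0 to 3 on leaving out 1 library (3 without KO MII 2). For MII against GV in WT it was 4 and became 8 with DESeq2 and 0 to 9 on leaving out 1 library (0 without WT GV 2, 1 without WT GV 1 or WT MII 2, 9 without WT MII 1). In KO it was 0 and became 3 with no filter, 6 with DESeq2, 4 in one model, and 0 to 24 on leaving out 1 library (24 without KO MII 1, 6 without KO MII 2). For GVBD against GV it was 0 in WT and became 1 with no filter and 0 to 3 on leaving out 1 library (3 without WT GV 2); in KO it was 1 and became 0 with TMM, median-of-ratios scaling or one model, 3 with no filter, 2 with DESeq2, and 0 to 2 on leaving out 1 library. The interaction of genotype with the change to MII gave 0, and 1 with no filter. Shares of all genes called are given above for the main fits and for some of these alternatives. Where no share is given, a count of members was not set against all genes and is not a result about the family. The cause of these shifts was not tested.

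The median of the members minus that of all genes moved beyond the replicate spread only on leaving out 1 library. It then ranged from -0.088 to 0.496 for KO against WT at GV and from -0.205 to 0.008 at GVBD, from -0.023 to 0.505 for MII against GV in WT and from -0.333 to 0.092 in KO, and from -0.124 to 0.368 for GVBD against GV in WT and from -0.206 to 0.024 in KO.

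Replicate numbers in the titles did not pair the libraries. Deviations of libraries with the same number correlated at -0.223 to 0.243, over 13273 genes. With the replicate block the count of called members was 1 at GVBD, 1 over all stages (Slc25a30), 4 for MII against GV in WT, 1 in KO (Slc25a20) and 0 for GVBD against GV in KO, where it had been 1, and it was otherwise unchanged. With crossed numbers 1 member was called at GV and 0 at MII. Of the called estimates, 1 reversed: Slc25a37 for MII against GV in WT was 0.12 without WT GV replicate 2, and ran down to -5.19 on leaving out another library.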
